A study of Mus musculus with 9 samples.

Results

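The levels of 10 mouse cytokine and receptor genes were followed in colon organoids, small epithelial structures that are cultured from colon tissue. The genes were the tumour necrosis factor family ligands Tnf and Ltb, the Tnf receptors Tnfrsf1a and Tnfrsf1b, the Tnf-induced gene Tnfaip2, the colony-stimulating factors Csf1, Csf2 and Csf3, and the interleukin-6 family ligands Il6 and Lif. They were listed by symbol and found on the array through the RefSeq accession of each probe, and all 10 had a probe among the 20660 genes that could be named. The list was proposed with the levels of these genes across the weeks known, so their values are a description and were given no test of their own.

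Total RNA was measured on 9 single-colour (Cy3) Agilent arrays in 3 groups of 3: untreated organoids (0 weeks), organoids treated for 12 weeks and organoids treated for 60 weeks. The treatment was with inflammatory reagents that carry no name in the labels. The labels give no strain, sex or age of the mice and do not say whether the replicates came from separate animals or cultures, so the spread between arrays may be technical. No untreated organoids at 12 or 60 weeks were analysed here, so the effects of treatment and of culture time cannot be told apart. In bulk RNA, a change in the number of cells of a type and a change in RNA per cell cannot be told apart either. Levels are log2 signals relative to the 75th percentile of an array, so a probe with that very signal has a level of 0, and levels are compared only within a probe.

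Tnf is a membrane-bound cytokine that the protease ADAM17 releases from the cell surface, and its receptors feed into NF-kB, MAP kinase and cell death signalling. Colony-stimulating factors were named for their ability to make myeloid progenitors grow and mature, and act on macrophages (Csf1), on several myeloid lineages (Csf2) and on neutrophils (Csf3). Il6 and Lif signal through receptor complexes that share the gp130 subunit, encoded by Il6st, and activate JAK kinases and the transcription factor STAT3.

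Before the values, the DNA in front of the ligand genes is shown, since NF-kB and AP-1 are known to act at several of these promoters. The 250 bases before the gene start were taken from RefSeq (GRCm38.p6) for 9 of the 10 genes, all but Csf3. They were searched on both strands for the NF-kB consensus and for the AP-1 motif TGANTCA. Matches are in capitals, all sequences read 5′ to 3′ on the gene's strand, and each ends at the base before the gene start. The first 3 hold matches, and the last 2 are shown because Csf2 had the largest difference from 0 weeks and Tnf is the ligand for which its family is named.
Ltb (chr17:35194257-35194506, plus strand): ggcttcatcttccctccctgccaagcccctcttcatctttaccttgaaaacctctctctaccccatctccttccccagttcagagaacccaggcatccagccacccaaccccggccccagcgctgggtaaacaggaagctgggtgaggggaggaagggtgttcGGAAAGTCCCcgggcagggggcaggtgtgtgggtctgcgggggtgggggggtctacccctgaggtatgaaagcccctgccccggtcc
Lif (chr11:4257318-4257567, plus strand): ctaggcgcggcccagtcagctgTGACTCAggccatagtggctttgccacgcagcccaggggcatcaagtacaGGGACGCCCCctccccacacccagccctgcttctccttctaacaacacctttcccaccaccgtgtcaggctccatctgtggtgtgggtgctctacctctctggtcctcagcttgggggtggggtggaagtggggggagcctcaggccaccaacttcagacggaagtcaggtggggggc
Il6 (chr5:30012864-30013113, plus strand): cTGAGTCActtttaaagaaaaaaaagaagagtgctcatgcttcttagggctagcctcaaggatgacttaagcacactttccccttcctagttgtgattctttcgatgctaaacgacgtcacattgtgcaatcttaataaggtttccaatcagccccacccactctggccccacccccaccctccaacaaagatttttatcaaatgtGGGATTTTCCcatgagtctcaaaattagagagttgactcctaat
Tnf (chr17:35202008-35202257, minus strand): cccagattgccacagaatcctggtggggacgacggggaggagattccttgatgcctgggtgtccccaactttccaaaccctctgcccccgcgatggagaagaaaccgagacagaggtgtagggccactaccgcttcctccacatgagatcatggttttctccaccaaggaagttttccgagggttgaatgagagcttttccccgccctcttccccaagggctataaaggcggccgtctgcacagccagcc
Csf2 (chr11:54249900-54250149, minus strand): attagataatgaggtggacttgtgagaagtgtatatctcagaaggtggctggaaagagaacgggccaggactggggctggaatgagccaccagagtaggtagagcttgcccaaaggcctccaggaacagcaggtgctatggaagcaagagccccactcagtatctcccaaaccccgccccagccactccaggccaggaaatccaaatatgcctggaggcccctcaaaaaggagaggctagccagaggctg
The NF-kB consensus began 87 bases before the start of Ltb, 178 bases before Lif and 44 bases before Il6. It also matched 154 bases before Csf1 and 24 bases before Tnfaip2. The AP-1 motif began 228 bases before Lif and 249 bases before Il6. Of 27025 promoters of the same length, 1894 (7.01%) held the NF-kB consensus and 1856 (6.87%) the AP-1 motif. A match is thus found before many other genes too, and was not tested for function. A window without one says only that those letters are not in it.

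Tnf, Ltb, Tnfaip2, Csf2, Csf3 and Lif were higher in treated than in untreated organoids, and both Tnf receptors moved little. At 12 against 0 weeks, 7 of the 9 tested genes had all 3 treated arrays above all 3 untreated arrays (24.9% of all 14034 tested genes did so). The same held for 7 genes at 60 against 0 weeks, where the share over all genes was 27.6%. At 60 against 12 weeks, 4 genes lay higher without overlap and 1 lay lower, against 25.4% and 21.9% of all genes. Il6 was not tested, since its probe was above background on too few arrays.

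The fit across all genes, limma with a Benjamini-Hochberg adjusted p under 0.05, called 7 of the 9 tested genes higher and 0 lower at 12 against 0 weeks. In that comparison it called 41.8% of all genes, 19.1% as higher and 22.7% as lower. At 60 against 0 weeks it called 6 higher and 0 lower, with 32.8% of all genes called, 16.7% higher and 16.1% lower. At 60 against 12 weeks it called 3 higher and 0 lower, with 38.3% of all genes called, 20.7% higher and 17.6% lower. The list was chosen on these contrasts, so nothing is read from the counts. The median log2 difference of the 9 genes was 1.39, 1.41 and 0.46 in the 3 comparisons, and that of all tested genes was -0.06, -0.04 and 0.02.

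**Figure D1:**
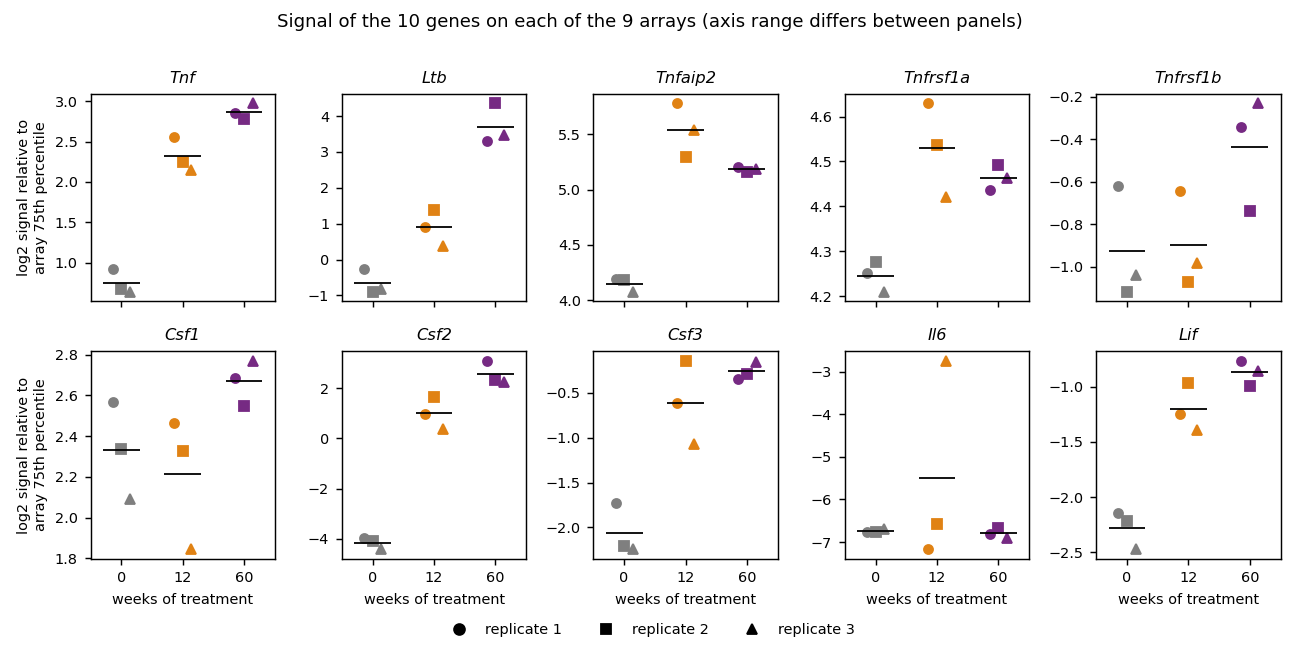
Signal of the 10 genes on each of the 9 arrays, as log2 relative to the array's 75th percentile, by weeks of treatment; symbols mark the replicate, lines the group mean, and axis ranges differ between panels. Csf2 lies between -4.42 and -3.96 at 0 weeks and at 0.39 or above on all 6 treated arrays, while Il6 was above background on 1 array only, so its other 8 points carry no order.

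Tnf, the founding ligand of its family, was higher at 12 weeks and higher again at 60 weeks. Its log2 level was 0.92, 0.67 and 0.64 on the 0 weeks arrays, 2.55, 2.25 and 2.15 on those at 12 weeks, and 2.85, 2.78 and 2.97 on those at 60 weeks. The 3 groups did not overlap. The log2 difference was 1.58 ± 0.14 (SE, n = 3 arrays per group) at 12 against 0 weeks and 2.13 ± 0.14 at 60 against 0 weeks, which is 4.37-fold. The later step, 60 against 12 weeks, was 0.55 ± 0.14 and smaller than the first. Without 12 weeks replicate 3 it was 0.47 and no longer called in the fit across all genes.

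Ltb encodes lymphotoxin beta, a membrane protein that joins lymphotoxin alpha in a complex recognised by the receptor Ltbr. Its log2 level was -0.26, -0.90 and -0.81 on the 0 weeks arrays, 0.91, 1.38 and 0.39 on those at 12 weeks, and 3.30, 4.35 and 3.46 on those at 60 weeks. The groups did not overlap, and most of the Ltb difference lay after 12 weeks, while most of the Tnf difference lay before. The log2 difference was 1.55 ± 0.34 at 12 against 0 weeks (SE, n = 3 per group) and 2.81 ± 0.34 at 60 against 12 weeks, or 7.01-fold. At 60 against 0 weeks it was 4.36 ± 0.34, or 20.6-fold.

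Tnf and Ltb are neighbours on chromosome 17, beside Lta, the gene of lymphotoxin alpha. The Lta probe was above background on 1 of the 9 arrays, a 60 weeks array, so the known partner of Ltb was not measured here. On the far side of Ltb, Lst1 lay at -0.41 and -0.52 on the log2 difference scale at 12 and 60 against 0 weeks, and did not pass the test (limma adjusted p = 0.0888 and 0.0518). Nfkbil1, beside Lta, fell at 12 weeks by 0.69 (adjusted p = 0.00379). At 60 against 0 weeks Nfkbil1 lay at 0.17 (adjusted p = 0.346).

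Tnfrsf1a encodes the widely expressed receptor that carries a death domain, and Tnfrsf1b the receptor found mostly on immune and endothelial cells. The Tnfrsf1a level was 4.25, 4.28 and 4.21 on the 0 weeks arrays, 4.63, 4.54 and 4.42 on those at 12 weeks, and 4.44, 4.49 and 4.46 on those at 60 weeks. Both treated groups lay above the untreated one and overlapped each other, and the steps were small: 0.28 ± 0.09 at 12 weeks and 0.22 ± 0.09 at 60 weeks against 0 weeks (SE, n = 3 per group). A second probe of Tnfrsf1a gave 0.23 and 0.15. The Tnfrsf1a call at 12 weeks is the least certain of those counted above: it held in 12 of 21 alternatives and ended, among others, when any 0 weeks array, 12 weeks replicate 1 or 60 weeks replicate 1 was left out (adjusted p 0.054 to 0.0943).

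Tnfrsf1b had log2 levels of -0.62, -1.12 and -1.04 on the 0 weeks arrays, -0.64, -1.07 and -0.98 on those at 12 weeks, and -0.34, -0.74 and -0.23 on those at 60 weeks. The groups overlapped in all 3 comparisons. The differences were 0.03 ± 0.19 at 12 against 0 weeks and 0.49 ± 0.19 at 60 against 0 weeks.

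Tnfaip2, a gene first found through its induction by Tnf, whose protein takes part in membrane protrusions between cells, was the one listed gene that was lower at 60 than at 12 weeks without overlap. Its log2 level was 4.19, 4.18 and 4.08 on the 0 weeks arrays, 5.78, 5.29 and 5.54 on those at 12 weeks, and 5.20, 5.16 and 5.19 on those at 60 weeks. The 3 groups did not overlap. Against 0 weeks the log2 difference was 1.39 ± 0.13 after 12 weeks and 1.03 ± 0.13 after 60 weeks, and from 12 to 60 weeks it was -0.35 ± 0.13 (SE, n = 3 per group). A second probe gave 1.40, 0.97 and -0.43. The turn at 60 weeks was called in 7 of 21 alternatives and not in the main setting.

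**Figure D2:**
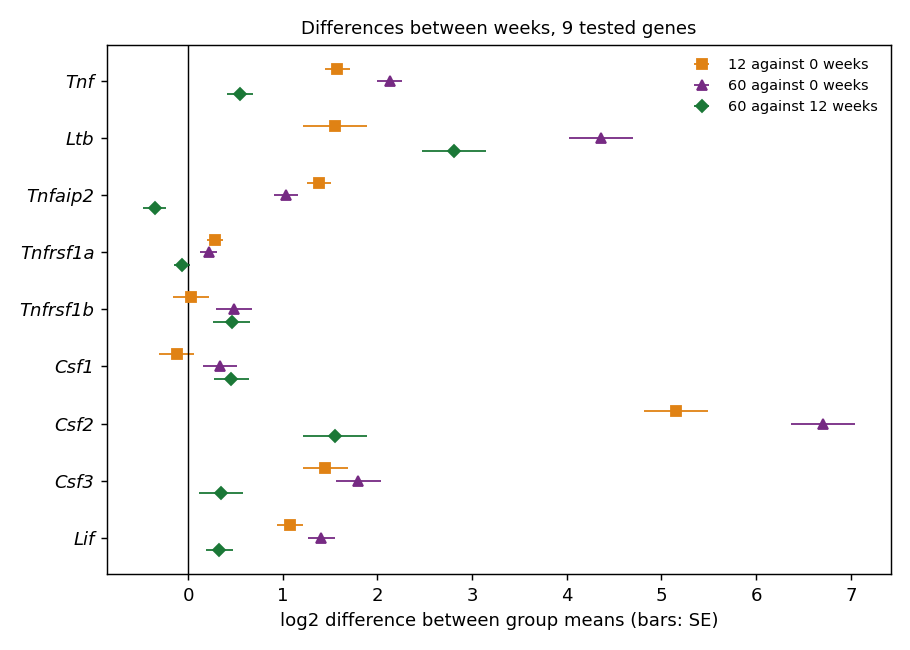
Log2 differences between weeks for the 9 tested genes, with bars of 1 standard error from the fit across all genes. Csf2 and Ltb lie farthest to the right at 60 against 0 weeks (6.70 and 4.36), and Tnfaip2 is left of 0 at 60 against 12 weeks (-0.35).

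Csf2, the gene of the growth factor GM-CSF, had the largest differences from 0 weeks among the 9 tested genes. Its log2 level was -3.96, -4.09 and -4.42 on the 0 weeks arrays, 0.95, 1.66 and 0.39 on those at 12 weeks, and 3.09, 2.33 and 2.23 on those at 60 weeks. The 3 groups did not overlap. Against 0 weeks the log2 difference was 5.15 ± 0.34 after 12 weeks (35.6-fold) and 6.70 ± 0.34 after 60 weeks (104-fold), and from 12 to 60 weeks it was 1.55 ± 0.34 (SE, n = 3 per group).

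The 0 weeks signal of Csf2 was close to the lowest values called above background on those arrays (-4.78, -4.78 and -4.65). With the normexp alternative, which starts from median signals and adds an offset, the differences were 3.42 and 4.91 at 12 and 60 against 0 weeks. On chromosome 11 its neighbour Il3, another haematopoietic growth factor, was above background on 1 of 9 arrays. On the other side, P4ha2, a collagen prolyl hydroxylase subunit, rose at 60 weeks by 0.88 (adjusted p = 0.0144) and lay at -0.22 at 12 weeks.

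Csf3, the gene of G-CSF, lay at -1.73, -2.20 and -2.24 on the 0 weeks arrays, -0.61, -0.14 and -1.07 on those at 12 weeks, and -0.34, -0.29 and -0.15 on those at 60 weeks. Both treated groups lay above the untreated group and overlapped each other. Against 0 weeks the log2 difference was 1.45 ± 0.24 after 12 weeks and 1.80 ± 0.24 after 60 weeks, and from 12 to 60 weeks it was 0.35 ± 0.24 (SE, n = 3 per group). Its neighbour Psmd3, a proteasome subunit gene, lay at -0.01 and -0.10 at 12 and 60 against 0 weeks. On the other side, Med24 rose at 12 weeks by 0.43 (limma, adjusted p = 0.00426) and lay at -0.06 at 60 against 0 weeks.

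Csf1, the gene of the macrophage growth factor, gave different answers on its 3 probes. The brightest probe, for transcript NM_007778, read 2.57, 2.34 and 2.09 on the 0 weeks arrays, 2.46, 2.33 and 1.85 on those at 12 weeks, and 2.69, 2.55 and 2.77 on those at 60 weeks. The 0 weeks group overlapped both others. The log2 difference was -0.12 ± 0.18 at 12 against 0 weeks and 0.34 ± 0.18 at 60 against 0 weeks (SE, n = 3 per group).

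Both other Csf1 probes, for transcript NM_001113530, showed no overlap between 60 weeks and either earlier group. One of them read 0.14, -0.01 and -0.66 on the 0 weeks arrays, 0.40, 0.15 and -0.10 on those at 12 weeks, and 1.36, 1.28 and 1.03 on those at 60 weeks. Their differences at 60 against 0 weeks were 1.40 and 1.34. With the mean of all 3 probes the Csf1 difference at 60 against 0 weeks was 1.02 and was called.

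**Figure D3:**
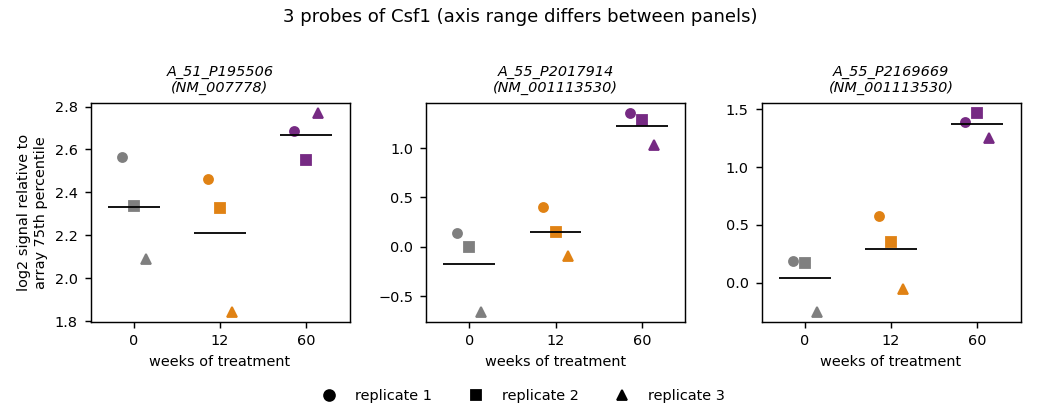
The 3 probes of Csf1 on each array, as log2 signal relative to the array's 75th percentile, by weeks of treatment; symbols mark the replicate, lines the group mean, and axis ranges differ between panels. The 60 weeks arrays lie 1.40 and 1.34 above the 0 weeks mean on the probes for NM_001113530 and 0.34 above it on the probe for NM_007778.

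Lif, the gene of leukaemia inhibitory factor, lay at -2.14, -2.22 and -2.47 on the 0 weeks arrays, -1.24, -0.97 and -1.39 on those at 12 weeks, and -0.76, -0.99 and -0.86 on those at 60 weeks. The treated groups lay above the untreated one and overlapped each other. Against 0 weeks the log2 difference was 1.08 ± 0.14 after 12 weeks and 1.41 ± 0.14 after 60 weeks, and from 12 to 60 weeks it was 0.33 ± 0.14 (SE, n = 3 per group). With normexp, the first 2 were 0.65 and 0.89. Its neighbour Osm, the gene of oncostatin M, another gp130 ligand, was above background on 0 of 9 arrays. On the other side, Hormad2 had mean levels of -6.37, -6.17 and -4.02 at 0, 12 and 60 weeks. The first 2 lay below the arrays' lowest values called above background (-5.17 to -4.52).

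Il6 was above background on 1 array. Its probe read -2.74 on 12 weeks replicate 3 and between -7.17 and -6.58 on the other 8 arrays, where it was not well above background. That array had the lowest 12 weeks level of Tnf, Ltb, Csf1, Csf2, Csf3 and Lif. In the same group replicate 2 had the highest level of Ltb, Csf2, Csf3 and Lif, while replicate 1 had the highest Tnf, Tnfaip2 and Tnfrsf1a.

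Over the 9 arrays, Csf2, Csf3, Lif and Tnf followed each other closely, with Pearson correlations of 0.96 to 0.99 between pairs. Ltb (0.88) and Tnfaip2 (0.87) followed Tnf less closely, and the correlation between Ltb and Tnfaip2 was lower (0.56). These correlations describe arrays that fall into 3 groups and share their scaling. Among 3194 tested genes whose group means span at least 1 log2 unit, Csf2 was followed most closely by Prxl2a (0.997), Itga2 (0.994), Ppic (0.993), Il1f9 (0.992) and Trp53inp2 (0.990). The genes closest to Tnf were Stx11 (0.998), Cyp2b10 (0.996), Ppic and Ramp3 (0.993 each) and Prkch (0.991).

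Of those genes, Ppic, a cyclophilin gene, had levels of 0.71 ± 0.08 at 0 weeks, 4.34 ± 0.26 at 12 weeks and 5.87 ± 0.09 at 60 weeks (SD, n = 3). Itga2, an integrin collagen receptor subunit, had -2.11 ± 0.17, -0.08 ± 0.48 and 0.61 ± 0.11 at the same times. Il1f9, an interleukin-1 family cytokine also called interleukin-36 gamma, was not above background at 0 weeks and lay at -1.61 ± 0.42 at 12 weeks and -0.74 ± 0.13 at 60 weeks.

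The arrays were hybridised in 2 rows of 1 slide and in a second slide. All 0 weeks arrays and 12 weeks replicate 1 shared the first row, 12 weeks replicates 2 and 3 and 60 weeks replicates 1 and 2 shared the second, and 60 weeks replicate 3 was alone on the second slide. The 60 and 0 weeks groups share no row, so a fit with the row as a block compares them only through the 12 weeks arrays. Within the first row, the 1 array at 12 weeks lay above the mean at 0 weeks by 1.81 for Tnf, 1.57 for Ltb, 5.11 for Csf2, 1.45 for Csf3 and 1.03 for Lif. Within the second row, 60 minus 12 weeks was 0.62 for Tnf, 2.94 for Ltb, 1.69 for Csf2 and -0.23 for Tnfaip2. These within-row values have the direction of the values above.

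Markers of the epithelium and of other cell types were checked in the same arrays. All 11 colon epithelial markers were above background on every array, with a summed log2 level of 11.04 to 11.31 at 0 weeks, 11.17 to 11.25 at 12 weeks and 11.13 to 11.29 at 60 weeks. Of the 10 leukocyte markers on the array, 5 were above background on none, among them Ptprc, which encodes the pan-leukocyte antigen CD45, and Tyrobp and Lyz2, both of myeloid cells. Another 4 (Itgam, Cd14, Cd3e and Coro1a) were above background on all 9 arrays. The remaining one, the macrophage marker Adgre1, was above background on 1 array at 0 weeks, 0 at 12 weeks and 2 at 60 weeks. The summed leukocyte signal was 4.80 to 5.07 at 0 weeks, 5.52 to 6.00 at 12 weeks and 5.59 to 5.82 at 60 weeks, and came mostly from Itgam and Cd14. The fibroblast and smooth muscle list had 5 of 9 genes on no array, including Pdgfra and Dcn. Its Col1a2 was above background on 9 arrays, Acta2 on 8, Col1a1 on 6 and Col3a1 on 2. The sum of this list was -1.68 to -1.27, -2.14 to -1.72 and -1.71 to -1.37 in the 3 groups. The endothelial list lacked Cdh5 and Tek, while Pecam1 and Kdr were above background on every array. Its sum, carried mostly by Kdr, was 3.11 to 3.45, 2.79 to 3.17 and 3.12 to 3.52. Its gene Vwf was above background on 0 arrays at 0 weeks and on all 3 at each later time, with means of -4.50, -3.67 and -1.68. The part of these marker signals in the cytokine values was not tested.

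Receptors for these ligands were described whatever their values. Ltbr, the receptor for lymphotoxin complexes, lay at 4.51, 4.48 and 4.58 on the 0 weeks arrays, 5.12, 4.80 and 4.97 on those at 12 weeks, and 4.14, 4.14 and 4.33 on those at 60 weeks. It rose at 12 against 0 weeks by 0.44 ± 0.11 (limma, adjusted p = 0.013) and fell at 60 against 12 weeks by 0.76 ± 0.11 (adjusted p = 0.00137), while Ltb was higher at both times. Without 0 weeks replicate 2 the rise was 0.42 with an adjusted p of 0.0508. At 60 against 0 weeks the difference was -0.32 (adjusted p = 0.0542).

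Of the Csf receptors, Csf3r, the G-CSF receptor, lay at 5.57 ± 0.24 at 0 weeks, 5.62 ± 0.46 at 12 weeks and 5.51 ± 0.20 at 60 weeks (SD, n = 3), and no comparison passed the test (adjusted p = 0.86, 0.883 and 0.739). Csf1r, the receptor for Csf1, fell at 60 against 12 weeks by 0.62 ± 0.09 (adjusted p = 0.00166). Its fall at 60 against 0 weeks was 0.37 (adjusted p = 0.0169), but ended without 0 weeks replicate 2 or 3 or 60 weeks replicate 1 or 2 (adjusted p 0.073, 0.0503, 0.0561 and 0.0531), with the mean of its probes (0.288) and with the row as a block (0.244). Csf2ra, the ligand-binding subunit for Csf2, fell at 60 against 12 weeks by 1.06 ± 0.25 (adjusted p = 0.0124, or 0.0542 with the row as a block). Its rise at 12 against 0 weeks was 0.86 (adjusted p = 0.0258) and ended in 5 settings, 4 of which left out 0 weeks replicate 2 or 3 or 12 weeks replicate 1 or 3 (adjusted p 0.0864, 0.0594, 0.0801 and 0.0796).

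Csf2rb, the signalling subunit, was at -3.10 ± 0.08 at 0 weeks, -3.58 ± 0.14 at 12 weeks and -3.48 ± 0.28 at 60 weeks (SD, n = 3). It fell at 12 weeks by 0.48 (adjusted p = 0.032), and the call ended when any one 0 weeks array or 12 weeks replicate 1 or 3 was left out, with adjusted p-values up to 0.101. Csf2rb has a close copy, Csf2rb2, so its probe may read both genes.

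**Figure D4:**
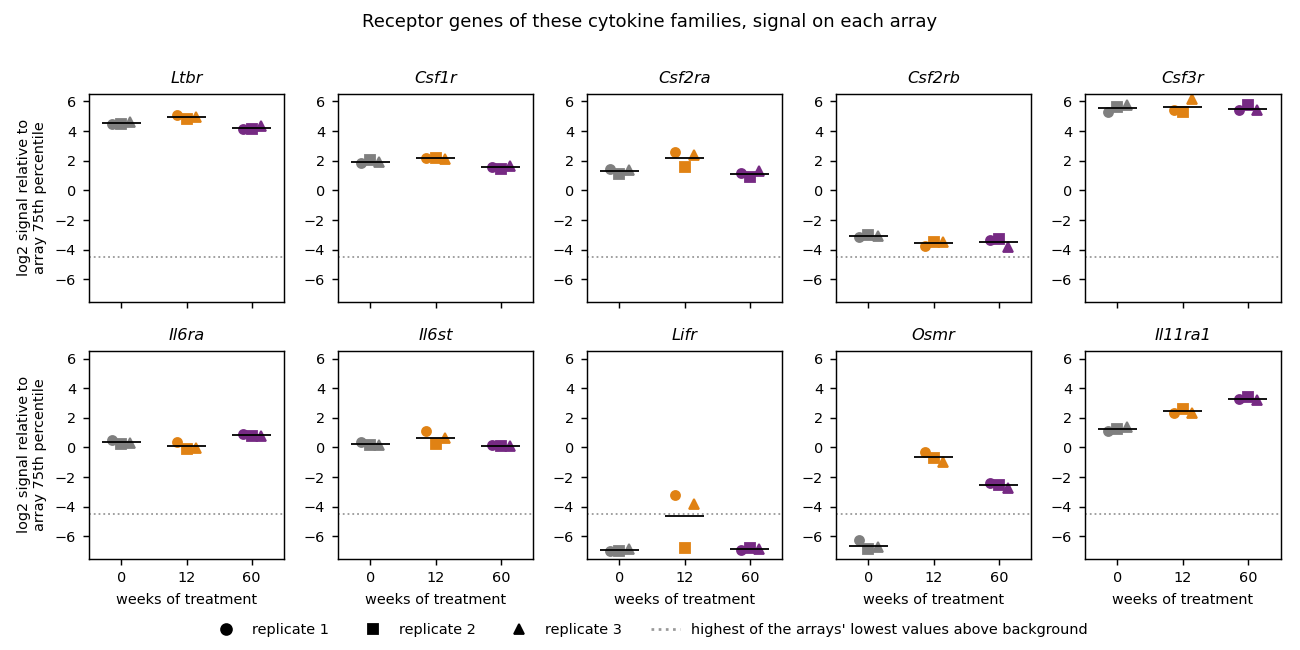
Signal of 8 receptor genes for the ligands, and of Osmr and Il11ra1 of the same family, on each array, as log2 relative to the array's 75th percentile, by weeks of treatment; symbols mark the replicate, solid lines the group mean and the dotted line the highest of the arrays' lowest values called above background. Osmr and Lifr lie below that line at 0 weeks, and Osmr lies above it on all 6 treated arrays.

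Of the interleukin-6 family receptors, Osmr and Il11ra1 rose at both times against 0 weeks. Osmr, the oncostatin M receptor subunit, was not above background at 0 weeks and read -0.34, -0.70 and -0.99 at 12 weeks and -2.38, -2.50 and -2.75 at 60 weeks. With each 0 weeks array set to its lowest value called above background, Osmr was at least 16.7-fold higher at 12 weeks. At 60 weeks it was at least 4.58-fold higher than at 0 weeks. The adjusted p-values of the limma fit (5.81e-07 and 5.18e-06) rest on the dim 0 weeks values as read, not on these bounds. Osmr passed the filter only through the treated arrays, so the p-values are a description. At 60 against 12 weeks it fell by 1.87 ± 0.21 (adjusted p = 0.000411). Il11ra1, a receptor for interleukin-11, rose by 1.20 ± 0.11 at 12 weeks and by 2.05 ± 0.11 at 60 weeks (adjusted p = 0.000111 and 7.43e-06), with no overlap of groups.

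Il6ra, the ligand-binding receptor for Il6, rose at 60 against 12 weeks by 0.74 ± 0.15 (adjusted p = 0.00704) and lay at -0.27 at 12 against 0 weeks (adjusted p = 0.183). Its rise of 0.47 at 60 against 0 weeks (adjusted p = 0.048) ended when any one array of those 2 groups or 12 weeks replicate 3 was left out, with adjusted p-values up to 0.146. Il6st lay at 0.23 ± 0.11 at 0 weeks, 0.67 ± 0.42 at 12 weeks and 0.11 ± 0.02 at 60 weeks (SD, n = 3). Its fall of 0.56 at 60 against 12 weeks (adjusted p = 0.046) ended when any one array other than 12 weeks replicate 2 was left out, with adjusted p-values up to 0.103, and with the row as a block (0.176). Lifr, the receptor for Lif, was above background on 12 weeks replicates 1 and 3 only, at -3.23 and -3.79, with -6.75 on replicate 2. That is at least 1.11-fold higher at 12 than at 0 weeks. The limma adjusted p of 0.0381 rests on the dim values as read, not on this bound, and the call held in 8 of 18 alternatives. Lifr passed the filter only through 12 weeks replicates 1 and 3, so the p-value is a description. Without the filter another Lifr probe stood for the gene, with -0.10 at 12 against 0 weeks.

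Of 131 genes in 9 lists around these pathways, 99 were tested, and 29 rose and 21 fell at 12 against 0 weeks, or 50.5% called. At 60 against 0 weeks 31 rose and 11 fell (42.4%), and at 60 against 12 weeks 31 rose and 12 fell (43.4%). The shares over all genes were 41.8%, 32.8% and 38.3%. Rises made up 19.1%, 16.7% and 20.7% of all genes, and falls 22.7%, 16.1% and 17.6%. No list was tested as a set. The median differences of the lists together were 0.08, 0.20 and 0.16.

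Among other ligands of the Tnf family, 4 of 15 genes on the array were tested. At 12 against 0 weeks 3 rose and 0 fell, at 60 against 0 weeks 2 rose and 0 fell, and the medians were 1.19 and 0.42. Tnfsf13b, the gene of the B cell survival factor BAFF, rose by 1.64 ± 0.24 at 12 weeks and by 2.91 ± 0.24 at 60 weeks (adjusted p = 0.00121 and 6.52e-05). Its signal at 0 weeks was dim, with a mean of -3.84. Over 21 alternatives these rises were 0.77 to 1.82 and 1.74 to 3.08. Tnfsf9, the ligand of the T cell costimulator 4-1BB, rose by 0.75 ± 0.12 and 0.86 ± 0.12 (adjusted p = 0.00195 and 0.0012), and the second call ended with the row as a block (0.64, adjusted p = 0.104). Tnfsf15, the gene of the cytokine TL1A, read 2.44, 0.05 and 2.37 at 12 weeks and -0.95, -0.80 and -1.01 at 0 weeks, a rise of 2.54 ± 0.57 (adjusted p = 0.00817). From 12 to 60 weeks Tnfsf13b rose by 1.27 (adjusted p = 0.00494) and Tnfsf15 fell by 2.57 (adjusted p = 0.009).

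Of the other 23 Tnf receptor family genes, 17 were tested, with 5 rises and 4 falls at both 12 and 60 against 0 weeks and 4 rises and 2 falls at 60 against 12 weeks. The medians were 0.22, -0.32 and 0.09, and 52.9%, 52.9% and 35.3% of the 17 were called (41.8%, 32.8% and 38.3% of all genes). Tnfrsf11b, the secreted decoy receptor osteoprotegerin, rose by 2.77 ± 0.15 at 12 weeks and 3.00 ± 0.15 at 60 weeks (adjusted p = 5.63e-06 and 4.54e-06). The death receptor gene Fas rose by 0.88 ± 0.15 and 1.33 ± 0.15 (adjusted p = 0.00229 and 0.000334). Tnfrsf10b, a receptor for the death ligand TRAIL, rose by 0.72 at 12 weeks and 0.55 at 60 weeks (adjusted p = 0.00152 and 0.00685). Its 60 weeks call ended with the row as a block (adjusted p = 0.194). Tnfrsf21, another death domain receptor, fell at 12 weeks by 1.37 ± 0.13 (adjusted p = 0.000126). At 60 against 0 weeks Tnfrsf21 lay at -0.49 (adjusted p = 0.0231), a call that held in 16 of 21 alternatives. Tnfrsf4, a T cell costimulator, fell by 0.88 ± 0.16 at 12 weeks and 0.95 ± 0.16 at 60 weeks (adjusted p = 0.00281 and 0.00231).

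All 24 genes of Tnf shedding and receptor signalling were tested. At 12 against 0 weeks 3 rose and 5 fell, and at 60 against 0 weeks 8 rose and 3 fell. From 12 to 60 weeks 10 rose and 2 fell, and the 3 medians were 0.02, 0.20 and 0.24. That is 33.3%, 45.8% and 50.0% called, against 41.8%, 32.8% and 38.3% of all genes. Birc2, which encodes the ubiquitin ligase cIAP1, fell at 12 weeks by 0.80 ± 0.08 (adjusted p = 0.000173) and rose at 60 against 12 weeks by 0.72 ± 0.08 (adjusted p = 0.000443). Traf5, a receptor adaptor, fell by 1.22 ± 0.14 at 12 weeks (adjusted p = 0.000374), and Traf3, another adaptor, rose by 0.99 ± 0.14 (adjusted p = 0.00106). Rnf31, the catalytic subunit of the linear ubiquitin ligase, rose at 60 against 0 weeks by 0.71 ± 0.10 (adjusted p = 0.000878), and Adam17 rose by 0.72 ± 0.14 (adjusted p = 0.00592). With the row as a block both calls ended (adjusted p = 0.064 and 0.232). Casp8, the initiator caspase of death receptors, rose at 60 against 12 weeks by 1.17 ± 0.16 (adjusted p = 0.00123).

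Of the other genes named for induction by Tnf, 4 of 7 were tested. Against 0 weeks there were 2 rises at 12 weeks and 1 at 60 weeks, 0 falls, and medians of 0.16 and 0.35. That is 50.0% and 25.0% of only 4 genes, against 41.8% and 32.8% of all genes. Tnfaip3, which encodes the NF-kB inhibitor A20, rose by 1.73 ± 0.18 and 1.63 ± 0.18 (adjusted p = 0.000194 and 0.00033). Between 60 and 12 weeks limma called 0 of the 4 (1 at an unadjusted p under 0.05).

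The list of Csf receptors and other haematopoietic growth factors had 8 of 14 genes tested, with 3 rises and 2 falls at 12 weeks, 3 rises and 1 fall at 60 weeks against 0 weeks, and 2 rises and 2 falls at 60 against 12 weeks. The medians were 0.15, 0.09 and -0.12, and 62.5%, 50.0% and 50.0% of the 8 were called (41.8%, 32.8% and 38.3% of all genes). Kitl, the ligand of the stem cell factor receptor Kit, rose by 1.14 ± 0.20 and 1.02 ± 0.20 (adjusted p = 0.00282 and 0.00617). Il34, the second ligand of Csf1r, rose at 12 weeks by 1.91 ± 0.34 (adjusted p = 0.00299). Flt3l, a dendritic cell growth factor, rose at 60 against 0 weeks by 0.77 ± 0.16 (adjusted p = 0.00733). Thpo, the gene of thrombopoietin, fell at 12 weeks by 1.07 ± 0.25 (adjusted p = 0.00929) and rose from 12 to 60 weeks by 1.30 ± 0.25 (adjusted p = 0.00477). At 12 weeks Thpo was above background on 2 arrays only, with a group mean of -4.41. Over 20 alternatives the 2 differences were -1.45 to -0.47 and 0.57 to 1.42. With the row as a block the 12 weeks call of Il34 ended (1.48, adjusted p = 0.0655), as did those of Kitl (1.43, 0.069) and Flt3l (0.39, 0.415) at 60 against 0 weeks.

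Other interleukin-6 family ligands had 5 of 8 genes tested, with 2 rises and 2 falls at 12 weeks, 0 calls by limma at 60 weeks against 0 weeks (1 at an unadjusted p under 0.05), and 2 rises and 0 falls at 60 against 12 weeks. The medians were -0.29, 0.17 and 0.16. The receptor list of this family, with 7 of 8 genes tested, had 3 rises and 0 falls against 0 weeks at both times, and 2 rises and 3 falls at 60 against 12 weeks. Its medians were 0.85, 0.25 and -0.56, and 42.9%, 42.9% and 71.4% of the 7 were called (41.8%, 32.8% and 38.3% of all genes). Osmr, Lifr and Cntfr were above background on none of the 0 weeks arrays and passed the filter only through treated arrays. The counts and medians of this receptor list are therefore a description.

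JAK-STAT genes had 17 of 18 tested, with 4 rises and 5 falls at 12 weeks and 8 rises and 1 fall at 60 weeks against 0 weeks. From 12 to 60 weeks 8 rose and 0 fell, and the 3 medians were -0.11, 0.45 and 0.43. That is 52.9%, 52.9% and 47.1% called, against 41.8%, 32.8% and 38.3% of all genes. The kinase gene Jak1 rose by 0.67 ± 0.09 and 0.88 ± 0.09 (adjusted p = 0.000684 and 0.000195). Cish, a feedback inhibitor induced by STAT5, rose by 0.998 ± 0.132 and 1.03 ± 0.13 (adjusted p = 0.00068 and 0.000723). Stat5a fell at 12 weeks by 1.26 ± 0.16 (adjusted p = 0.000568). Socs3, a feedback inhibitor of gp130 signalling, rose at 60 against 12 weeks by 0.63 ± 0.11 (adjusted p = 0.00294).

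All 13 genes of cytokine mRNA decay and AU-rich element binding were tested, since transcripts such as those of Tnf and Csf2 are known targets. At 12 against 0 weeks 4 rose and 3 fell, and at 60 against 0 weeks 1 rose and 2 fell. From 12 to 60 weeks 2 rose and 2 fell, and the 3 medians were 0.00, -0.03 and 0.22. That is 53.8%, 23.1% and 30.8% called, against 41.8%, 32.8% and 38.3% of all genes. Zc3h12a, which encodes the ribonuclease Regnase-1, rose by 2.73 ± 0.20 and 2.67 ± 0.20 (adjusted p = 2.45e-05 and 3.17e-05). Auh, an RNA-binding enzyme, fell by 1.21 ± 0.10 and 0.74 ± 0.10 (adjusted p = 4.18e-05 and 0.000725). Zfp36l2, a member of the tristetraprolin family, fell by 0.97 ± 0.14 and 0.65 ± 0.14 (adjusted p = 0.00106 and 0.00868). With the row as a block the 60 weeks calls of Auh (adjusted p = 0.0513) and Zfp36l2 (adjusted p = 0.231) ended.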

How the data were processed

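RNA from 9 organoid samples was measured on 9 Agilent single-colour arrays. The authors quantified the scans with Agilent Feature Extraction 10.7.3.1 (protocol GE1_107_Sep09) on a design referring to mm9:NCBI37:Jul2007, per the file headers. Each deposited scanner file gives the intensity of every spot after background subtraction, without scaling across arrays. A deposited value table gives a signal for 42530 of 55681 non-control probes; how the authors made it is not given in the sources used here. Compared with the scanner files, each value is an intensity over a constant of its array, 0.993 to 0.999 of that array's 75th percentile, with column medians of 0.0582 to 0.0733, linear and not centred. It served as an alternative, and 0 of its columns were left unmatched.

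From the intensities, outlier spots (117 to 163 per array) were dropped, spots of a probe averaged and log2 ratios formed to the array's 75th percentile. Per array, 49.2% to 52.7% of probes were well above background, and 0 spots were saturated. Probes were named through RefSeq accessions in the GRCm38.p6 annotation (27235 with 1 symbol, 0 with several, 28446 with none). Those well above background on at least 2 of 3 arrays of a group were kept, and the brightest stood for its gene, which left 14034 tested genes. One fit over 9 arrays used limma 3.58.1 in R 4.3.3 (lmFit, eBayes, two-sided, no block), with Benjamini-Hochberg adjustment over all tested genes. Precision is limited by 3 arrays per group. The scripts were tested on simulated data.

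The scanner files used here hold no mean signal column, so the normexp alternative used median signal and median background (offset 50). The members and lists were chosen with earlier results of these data known. Named were all members, their receptors, up to 4 called genes per list and comparison in order of adjusted p, and the 5 genes most correlated with Csf2 and with Tnf. A gene above background on no array of a group is given as "at least N-fold", with the dim arrays at the lowest value called above background or their own value if higher. One gene of these lists is counted in its list and not reported here by name. Alternatives covered background correction, scaling, filter, probe choice, array weights, row and replicate blocks, the value table and leaving out each array.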

Additional observations from a re-analysis of the deposited data

Results flagged for a closer look

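For 7 of the pathway genes the 3 arrays at 12 weeks all lay on one side of the 3 arrays at 0 weeks and the 3 arrays at 60 weeks all lay on the other. Since they were picked for this pattern, their differences between 12 and 60 weeks in the fit are not used as a test of it. The pattern was seen in 8.08% of the 99 tested list genes, counting 1 that is not reported here, and in 5.44% of all 14034 tested genes. Values are log2 differences from 0 weeks at 12 and then at 60 weeks, each with the adjusted p of the limma fit. Ltbr had 0.44 (adjusted p = 0.013) and -0.32 (0.0542), Csf1r had 0.25 (0.0599) and -0.37 (0.0169), and the RNA-binding gene Tia1 had 0.92 (0.0176) and -0.38 (0.266). In the other direction, Casp8 had -0.81 (adjusted p = 0.00524) and 0.36 (0.129), and Rbck1, a linear ubiquitin ligase subunit, had -0.38 (0.0301) and 0.24 (0.148). Stat6 had -0.11 (adjusted p = 0.376) and 0.26 (0.0775). Only Jak2 of these 7 genes passed the test at both times, with -0.24 (adjusted p = 0.0497) and 0.61 (0.00112), and its 12 weeks call held in 5 of 21 alternatives. None of the 9 tested cytokine and receptor genes lay on opposite sides in this way.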

How the results depend on the processing

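The 9 tested genes kept the direction of their difference in 20 or 21 alternatives per comparison, except at 12 against 0 weeks for Tnfrsf1b (other sign in 4) and Csf1 (3). With the row as a fixed block, 1392 genes were called at 60 against 0 weeks (4600 without) and 3468 at 60 against 12 weeks (5378 without), and the list genes called were 15 and 27 (42 and 43 without); this block also ended the calls of Ltb at 12 weeks and of Csf3 at 60 weeks against 0 weeks. Array weights gave 7605 genes at 60 against 0 weeks and 8 of 9 members at 60 against 12 weeks, where the mean of all probes gave 5 and the main setting 3. The value table holds only 5 members, of which 4, 3 and 1 were called in the 3 comparisons. Leaving out 1 array gave 4238 to 7395 genes at 12 against 0 weeks (5860 in all), 3212 to 6041 at 60 against 0 and 3629 to 7063 at 60 against 12 weeks. Members called ranged over 6 to 7, 6 to 7 and 2 to 6, with 2 without 12 weeks replicate 3, where Tnf was lost, and 6 without 12 weeks replicate 2; list genes over 36 to 57, 30 to 54 and 29 to 55. The replicate block gave 5795, 4453 and 5246 genes, 7, 7 and 4 members, and 52, 43 and 43 list genes. Same-numbered arrays deviated together weakly (r of -0.08 to 0.20). Such values cannot decide whether the numbers pair the arrays, and the labels do not say. Without the filter on dim probes Lifr was at -0.10 at 12 against 0 weeks. There another probe, brighter on average but removed by the filter, stood for Lifr. With quantile normalization Prxl2a was at -0.094 at 60 against 12 weeks (0.28 in the main setting), and the cause was not tested. Replicate 2 at 12 weeks correlated at 0.98 with its group, against 0.99 among the others. Signal over background limits the fold of probes as dim as that of Csf2 at 0 weeks.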
